A study of Mus musculus with 96 samples.

Results

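The nuclear lamina genes described here are Lmna, Lmnb1, Lmnb2, Lbr, Tmpo, Emd, Banf1, Sun1 and Sun2, 9 of the 40202 genes counted in the deposited files. They were chosen by name as components of the lamina and of the inner nuclear membrane proteins that hold it. Earlier results of these data were known when they were chosen, and all 9 genes were found. Their counts were taken from 96 single-cell RNA libraries of C10, a mouse lung line labelled as alveolar type II epithelium. The labels put 48 cells in a group with no treatment, called control here, and 48 in a group treated for 36 h with 10 nM RO-3306, an inhibitor of the mitotic kinase CDK1. The dose is given as labelled, although this inhibitor is commonly used at micromolar doses. Single cells were placed in nanolitre wells with a cellenONE sorter and amplified with SMART-seq v4, a full-length cDNA method. No allele or transgene is named for either group, and whether the control cells received the solvent of RO-3306 is not stated. The labels name no separate cultures, so each treatment is 1 sample, cells are not replicates of it, and no test of the treatment was possible. All differences below are descriptions of these libraries. Intervals of counts cover counting error only. Those of shares of cells take the cells as independent draws, and neither kind covers differences between cultures.

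The nuclear lamina is a meshwork of A-type and B-type lamin filaments under the inner nuclear membrane, where it carries chromatin and fixes the nuclear pores. Lmna gives lamin A and lamin C by alternative splicing, and Lmnb1 and Lmnb2 give the B-type lamins. The mesh is tied to the membrane and to chromatin by the lamin B receptor (Lbr), by the LAP2 proteins (Tmpo), by emerin (Emd) and by the DNA-bridging protein BAF (Banf1), while Sun1 and Sun2 pass through the membrane and join the lamina to the cytoskeleton. At the entry into mitosis CDK1 phosphorylates lamins and several of these proteins, and the lamina comes apart.

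On GRCm39, the build of the count files, the 9 genes span chr3:88388455-88413842 (Lmna, minus strand), chr18:56840885-56886496 (Lmnb1, plus), chr10:80737197-80754079 (Lmnb2, minus), chr1:181642880-181669966 (Lbr, minus), chr10:90983433-91017614 (Tmpo, minus), chrX:73298272-73305169 (Emd, plus), chr19:5414661-5416904 (Banf1, minus), chr5:139186313-139235594 (Sun1, plus) and chr15:79608269-79626757 (Sun2, minus). Counts cover these whole spans, introns included.

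Libraries under 50000 counts or under 1000 detected genes were set aside, which left 29 control and 37 RO-3306 cells. The titles of the cells carry a letter from A to D whose meaning is not given, with 5 to 10 control and 6 to 11 RO-3306 cells to a letter, and sums within letters are used below to show how far a difference was shared. Cell totals ran from 59978.6 to 6457215 counts in control cells, with a median of 1753427, and from 295005 to 5321880 in RO-3306 cells, with a median of 2234309. The share of mitochondrial counts had a median of 3.40% in control and 4.42% in RO-3306 cells, and it reached 56.0% in RO-3306 cell B3. Cell A11 of the RO-3306 group had no count of Emd or Banf1, which every control cell had. Of the alveolar type II markers, Sftpc, Sftpa1 and Sftpd had no count in any kept cell and Sftpb had one in 1 RO-3306 cell, so the labelled cell type was not borne out by its defining surfactant genes. The other 2 were Abca3, at 9.38 and 5.21 CPM, and Lamp3, at 0.227 and 0.108 CPM. The 5 mesenchymal markers together held 5524 CPM (counts for each 1000000 of the library) in the control sum and 2494 CPM in the RO-3306 sum, with overlapping ranges over cells of 1329 to 10843 and 1249 to 13860. The 5 macrophage markers had a count in 6 of 29 control and 36 of 37 RO-3306 cells, with ranges of 0 to 252.8 and 0 to 860.1 CPM. They summed to 31.3 and 335.7 CPM, of which Cd68 made 0.0757 and 319.8 CPM, while Lyz2 stood at 29.5 and 15.8 CPM, Csf1r at 1.70 and 0 CPM, and Ptprc and Adgre1 at or under 0.129 CPM in both groups. The 5 epithelial markers summed to 1.78 and 0.978 CPM. Whether any of these differences had a part in the values of the lamina genes was not tested.

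The promoters of 4 of the genes are shown because their summed counts lay on one side of the control level in the cells of every title letter (Lmna, Tmpo, Emd) or, at a mean of at least 5 CPM, differed by more than 1 on the log2 scale (Lbr). They are the 250 bases before the RefSeq start on GRCm38.p6, written 5′ to 3′ on the gene's strand. Capitals mark matches on either strand to 5 motifs. These are the cell cycle genes homology region or CHR (TTTGAA), the CCAAT box (CCAAT), the GC box (GGGCGG), an E2F motif (TTTCCCGC) and an AP-1 motif (TGAGTCA). For Lmna and Tmpo the table lists 2 starts, and the one nearest the start of the longest protein-coding transcript was used.
Lmna, chr3:88503353-88503602, minus strand: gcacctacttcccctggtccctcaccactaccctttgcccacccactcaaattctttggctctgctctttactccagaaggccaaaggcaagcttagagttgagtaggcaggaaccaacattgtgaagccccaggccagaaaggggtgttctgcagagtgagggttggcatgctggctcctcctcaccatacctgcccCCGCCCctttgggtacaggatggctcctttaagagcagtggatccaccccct
Tmpo, chr10:91171620-91171869, minus strand: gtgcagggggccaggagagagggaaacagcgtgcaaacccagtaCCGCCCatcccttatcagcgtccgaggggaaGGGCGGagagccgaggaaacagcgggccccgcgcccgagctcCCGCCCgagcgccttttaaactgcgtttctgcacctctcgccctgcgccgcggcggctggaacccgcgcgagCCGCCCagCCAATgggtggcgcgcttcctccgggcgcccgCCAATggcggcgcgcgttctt
Emd, chrX:74254437-74254686, plus strand: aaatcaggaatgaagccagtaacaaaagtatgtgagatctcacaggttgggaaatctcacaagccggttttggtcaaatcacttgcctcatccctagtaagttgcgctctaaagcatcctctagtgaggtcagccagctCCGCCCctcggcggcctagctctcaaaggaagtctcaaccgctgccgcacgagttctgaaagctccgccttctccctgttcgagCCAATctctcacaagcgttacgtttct
Lbr, chr1:181842402-181842651, minus strand: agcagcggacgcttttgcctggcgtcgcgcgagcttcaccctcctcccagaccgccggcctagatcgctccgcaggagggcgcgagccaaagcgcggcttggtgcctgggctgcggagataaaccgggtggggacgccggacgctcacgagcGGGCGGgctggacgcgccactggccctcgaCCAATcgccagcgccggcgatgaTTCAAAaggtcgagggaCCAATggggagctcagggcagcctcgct

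The Lbr window held 1 match to the CHR, 2 to the CCAAT box and 1 to the GC box. The CHR match lay on the opposite strand, 45 to 40 bases before the start, between the CCAAT boxes that began 68 and 28 bases before it. The Tmpo window held 2 CCAAT boxes, beginning 53 and 21 bases before the start, and 4 GC boxes, and the Emd window held 1 of each. In the Lmna window only 1 GC box was found. Over 32851 promoter windows of the same length, the CHR letters occurred in 15.99%, the CCAAT box in 33.8%, the GC box in 32.7%, the E2F motif in 0.895% and the AP-1 motif in 4.46%, so a match to the CHR, CCAAT box or GC box is common. Of the other members with a window, Sun2 held a CHR match 95 to 90 bases before its start, and Banf1 the only E2F match. A match is a run of letters and does not show that a factor binds there.

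Summed over the kept cells and divided by mRNA length, Banf1 was the most abundant lamina gene in both groups, with 678 CPM per kb in control and 581 CPM per kb in RO-3306 cells. The order below it differed. In control cells it ran Lmna at 157, Tmpo at 85.5, Lbr at 39.4 and Emd at 24.1 CPM per kb, then Sun1, Lmnb2, Sun2 and Lmnb1 between 4.72 and 1.63. In RO-3306 cells Emd came second at 60.9 CPM per kb, followed by Tmpo at 54.0, Lmna at 48.7 and Lbr at 18.6, then Lmnb2, Sun1, Sun2 and Lmnb1 between 3.34 and 0.626. The middle 50% of cells overlapped between most neighbours in this order. The genes of a pair were counted in the same cells but were not compared cell by cell. An overlap therefore does not show that they were alike. The pairs without such overlap were Banf1 and Lmna, and Emd and Sun1, in control cells, and Banf1 and Emd, and Lmna and Lbr, in RO-3306 cells. The RO-3306 order of Emd, Tmpo and Lmna was therefore not separated by the cells.

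**Figure D1:**
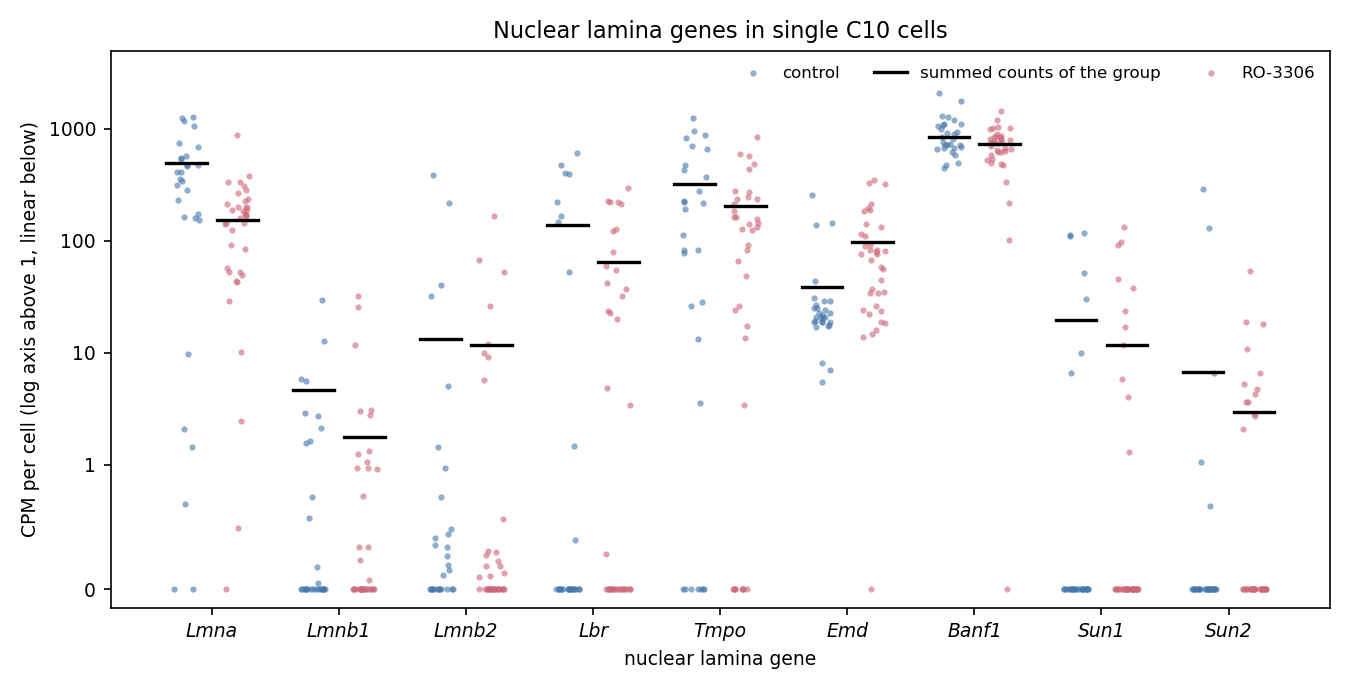
CPM of each lamina gene (x axis) in each kept cell (points, log axis above 1 CPM and linear below) for 29 control and 37 RO-3306 cells; black bars give the CPM of the summed counts of the group. Lmna lies lower and Emd higher in RO-3306 cells, Banf1 lies at nearly the same height in both, and the groups overlap for every gene.

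Across the 9374 genes whose mean of both groups reached 5 CPM, the log2 ratio of RO-3306 to control, computed on CPM + 1, had a median of -0.22 and quartiles of -0.98 and 0.43. A log2 ratio of at least 1 was reached by 12.2% of them and one of at most -1 by 24.2%. Of the 9 lamina genes, 7 reached that mean, and Lmnb1 and Sun2 did not. Among those 7, 1 gene was higher by that measure (Emd) and 2 were lower (Lmna and Lbr), and for so few genes these counts are not set apart from the background. The median ratio of all 9 was -0.69. Scaling by TMM or by DESeq2's size factors in place of the totals raises RO-3306 levels relative to control by 0.21 or 0.24 on the log2 scale, somewhat less on CPM + 1 for genes of few counts, which puts the median gene near 0, so a lamina gene near -0.22 stood with the typical gene.

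Lmna, the A-type lamin gene, was lower in RO-3306 cells. Control cells ranged from 0 to 1285 CPM with a median of 355.7, and RO-3306 cells from 0 to 891.4 CPM with a median of 166.4. The ranges overlapped, but 23 of 29 control cells had at least 100 CPM against 24 of 37 RO-3306 cells, and the upper quartile of RO-3306 cells, 213.8 CPM, lay below the control median. The group sums were 494.6 CPM (489.2 to 500.0, exact Poisson interval at 95%) in control and 153.8 CPM (151.3 to 156.3) in RO-3306 cells, a log2 ratio of -1.68, or 3.22-fold lower. Relative to the median gene the difference was -1.46, and 11.3% of the 9374 genes had a lower ratio. Among the 3702 genes of at least 50 CPM, to which Lmna and Emd belong, 14.4% were lower by 1 or more and 7.24% higher.

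Within letters A to D the control sums of Lmna were 438.0, 598.1, 419.7 and 404.2 CPM, and those of RO-3306 cells 170.2, 152.9, 163.1 and 128.6 CPM. The 4 control sums were all above the 4 RO-3306 sums, with log2 ratios of -1.36, -1.96, -1.36 and -1.64. Of all genes of at least 5 CPM, 6.43% were lower by 1 or more and had the same sign in all 4 letters. Lmna was detected in nearly all cells of both groups, 27 of 29 control cells (93.1%, exact binomial interval 77.2 to 99.2) and 36 of 37 RO-3306 cells (97.3%, 85.8 to 99.9). The difference thus lay in the number of counts per cell and not in the share of cells with a count. Longer mRNAs had lower ratios in these libraries, and against genes of like mRNA length, whose median was -0.33, Lmna was lower by -1.35. Cells thinned to 639000 counts each gave -1.44.

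Lmnb1 and Lmnb2, the B-type lamin genes, were sparse. Lmnb1 ranged from 0 to 29.7 CPM in control cells and from 0 to 32.4 CPM in RO-3306 cells, with a median of 0 in both. Its sums were 4.65 CPM (4.14 to 5.20) and 1.78 CPM (1.52 to 2.07), but control cell B4 held 62.4% of the control counts, and without that cell the log2 ratio of -1.02 became -0.08. Cells with a count made 44.8% of control (26.4 to 64.3) and 45.9% of RO-3306 cells (29.5 to 63.1). Beyond single cells, a difference in Lmnb1 was not detectable at this depth.

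Lmnb2 ranged from 0 to 391.7 CPM in control cells with a median of 0.196, and from 0 to 168.6 CPM in RO-3306 cells with a median of 0. The sums were 13.4 CPM (12.5 to 14.3) and 11.8 CPM (11.1 to 12.5), a log2 ratio of -0.17 that is close to the median gene. Most of the counts came from a few cells, with 43.3% of the control counts in cell C7 and 53.8% of the RO-3306 counts in cell C9. The ratio within letters ran from -3.84 in B to 1.68 in A, so no direction was shared. It was -1.11 without cell C9, and it took the opposite sign when either of 2 single cells was left out. Among cells with a count the median was 0.487 CPM in control against 0.436 CPM in RO-3306 cells, and 54.3% of the libraries with a count of it held a fractional value, which arises where a read was split between sites.

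Lmna made 96.5% of the summed counts of the 3 lamin genes in control (96.3 to 96.7, exact binomial) and 91.9% in RO-3306 cells (91.4 to 92.3). The total of the 3 genes was 512.7 CPM in control against 167.4 CPM in RO-3306 cells. The lower share was not a property of the typical cell, since the median over cells with a lamin count was 99.5% in 28 control and 99.6% in 36 RO-3306 cells. Only 3 control and 2 RO-3306 cells had under 50% of their lamin counts from Lmna. Within letters the share was 99.5, 96.1, 89.7 and 96.0% in control and 97.0, 96.4, 88.6 and 87.7% in RO-3306 cells, lower in A, C and D and not in B. Averaging CPM over cells in place of summing counts reduced the difference from -4.60 to -0.68 percentage points.

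**Figure D2:**
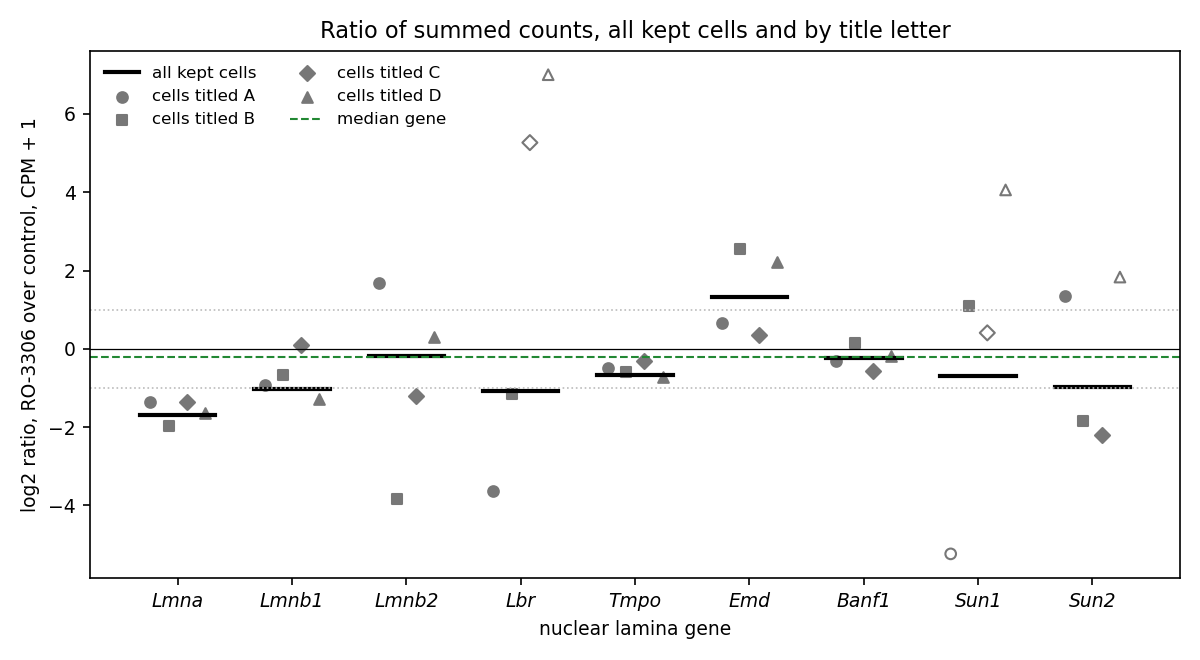
Log2 ratio of summed CPM + 1, RO-3306 over control (y axis), for each lamina gene over all kept cells (black bars) and within the cells of each title letter (grey symbols; open where a group had no count), with the median gene at -0.22 (dashed) and dotted lines at 1 and -1. All 4 letters lie below 0 for Lmna and Tmpo and above 0 for Emd, while Lbr, Sun1, Sun2 and Lmnb2 spread to both sides.

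Tmpo encodes the LAP2 proteins, which bind lamins and BAF. Control cells ranged from 0 to 1259 CPM with a median of 112.2, and RO-3306 cells from 0 to 853.3 CPM with a median of 128.2, so the medians stood in the opposite order to the sums. The sums were 322.6 CPM (318.3 to 326.9) in control and 203.7 CPM (200.8 to 206.6) in RO-3306 cells, a log2 ratio of -0.66. The upper quartile was 428.7 CPM in control against 237.1 CPM in RO-3306 cells, so the difference lay among the cells with the most Tmpo. Cells with a count made 75.9% of control (56.5 to 89.7) and 78.4% of RO-3306 cells (61.8 to 90.2), intervals that overlap almost fully. The ratio was -0.49, -0.59, -0.31 and -0.71 in letters A to D. Relative to the median gene it was -0.44, and relative to genes of like mRNA length it was -0.19.

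Lbr encodes the lamin B receptor, a membrane protein that binds B-type lamins and heterochromatin and is also a sterol reductase. Its counts came in few cells, 10 of 29 in control (34.5%, 17.9 to 54.3) and 19 of 37 in RO-3306 cells (51.4%, 34.4 to 68.1). Control cells ranged from 0 to 607.2 CPM with a median of 0, and RO-3306 cells from 0 to 295.3 CPM with a median of 0.284. Among cells with a count the median was 195.3 CPM in control against 54.9 CPM in RO-3306 cells. The values of cells with a count overlapped between the groups, and so did the intervals of the shares. After thinning to equal depth the shares were 36.0% of 25 control cells against 47.1% of 34 RO-3306 cells.

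The sums of Lbr were 138.4 CPM (135.6 to 141.3) in control and 65.4 CPM (63.7 to 67.0) in RO-3306 cells, a log2 ratio of -1.07. This ratio was not shared by the letters. The 10 control cells with a count were all titled A or B, where the sums were 173.8 and 187.2 CPM in control and 13.1 and 83.2 CPM in RO-3306 cells. In letters C and D the control cells held no count, which allows up to 0.374 and 0.404 CPM, and the RO-3306 cells held 37.5 and 127.3 CPM. The direction thus differed between letters A and B and letters C and D, and the ratio of the sums was -0.59 without letter A and -0.84 with DESeq2's size factors. Of the different 50-base runs in Lbr transcripts, 8.41% also occur in other genes, nearly all in the neighbouring Dnah14.

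Emd, which encodes emerin, was the lamina gene that was higher in RO-3306 cells. Control cells ranged from 5.50 to 258.4 CPM with a median of 20.95, and RO-3306 cells from 0 to 353.3 CPM with a median of 76.0. The ranges overlapped, but 26 of 29 control cells lay between 5.50 and 44.2 CPM, while 22 of 37 RO-3306 cells lay at or above 56.6 CPM. At least 50 CPM, a level chosen after the values were seen, was reached by 10.3% of control (2.19 to 27.4) and 59.5% of RO-3306 cells (42.1 to 75.2). The sums were 38.4 CPM (36.9 to 39.9) in control and 97.2 CPM (95.2 to 99.2) in RO-3306 cells, a log2 ratio of 1.32, or 2.53-fold. Of the 9374 genes, 91.5% had a lower ratio.

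Within letters A to D the sums of Emd were 53.5, 26.4, 48.2 and 19.2 CPM in control and 85.3, 158.5, 61.8 and 92.8 CPM in RO-3306 cells. All 4 RO-3306 sums lay above all 4 control sums, with log2 ratios of 0.66, 2.54, 0.35 and 2.22, and 7.23% of all genes of at least 5 CPM were higher by 1 or more with the same sign in all 4 letters. Without letter B the ratio was 0.74. Against genes of like mRNA length, whose median was 0.17, it was 1.15.

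Part of the Emd counts could not be assigned to emerin alone. In 69 of the 71 libraries with a count of Emd the value was fractional, the mark of reads with several sites. On GRCm38 the Emd gene, chrX:74254687-74261548 on the plus strand, holds within its span a processed copy of the translation initiation factor gene Eif1, named Gm14686, at chrX:74261032-74261374. Of the 2610 different runs of 50 bases in the annotated Emd transcripts, 7.74% also occurred in those of Eif1 and 11.3% in those of Gm14686. The counting used whole gene spans, so reads from Eif1 mRNA that also fit the copy would be split with Emd.

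Eif1 was abundant and close to equal between the groups, with sums of 1842 CPM (1832 to 1852) in control and 1954 CPM (1945 to 1963) in RO-3306 cells, a log2 ratio of 0.09. In control cells Emd stood at a median of 1.17 counts for 100 of Eif1, with quartiles of 1.06 and 1.57. In RO-3306 cells the median was 3.71, with quartiles of 1.53 and 6.45. The middle 50% of control cells thus lay in a narrow band, below that of RO-3306 cells but for a small overlap. When the median control ratio times Eif1 was taken from each sum, an alternative added after the data were seen, 16.8 CPM remained in control and 74.3 CPM in RO-3306 cells, a log2 ratio of 2.08. A near equal amount was taken from both groups, so the ratio had to rise. The higher value is therefore no separate evidence of a difference in Emd. How much of the Emd level of control cells came from reads shared with Eif1 cannot be told from the counts.

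**Figure D3:**
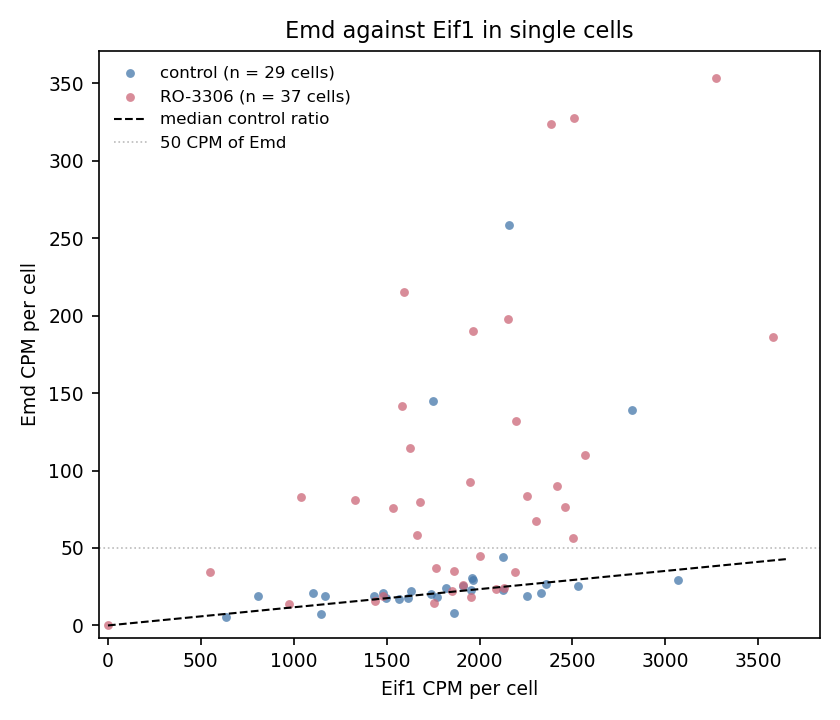
Emd CPM (y axis) against Eif1 CPM (x axis) in each kept cell, with the median control ratio of 1.17 Emd counts for 100 of Eif1 as a dashed line and 50 CPM of Emd as a dotted line. Of the 29 control cells, 26 lie under 50 CPM near the dashed line, and 22 of the 37 RO-3306 cells lie above 50 CPM.

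Banf1 encodes BAF, a small protein that bridges DNA and binds lamin A and the LEM-domain proteins LAP2 and emerin. Control cells ranged from 450.2 to 2093 CPM with a median of 818.1, and RO-3306 cells from 0 to 1459 CPM with a median of 752.1. The sums were 854.6 CPM (847.6 to 861.7) and 732.4 CPM (726.9 to 737.9), a log2 ratio of -0.22, the same to the second decimal as the median gene. Letter B stood at 0.14 and the others between -0.19 and -0.57. With DESeq2's size factors the ratio was 0.01. Against genes of like mRNA length, whose median was 0.18, it was -0.41. The value thus depended on the reference, so no direction can be given for Banf1. Its span overlaps the start of Eif1ad on the opposite strand, 24.8% of its 50-base runs also occur in Eif1ad transcripts, and the counting was given no strand option.

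Sun1 and Sun2, which couple the lamina to the nesprins of the outer membrane, were counted in few cells. Sun1 had a count in 7 of 29 control and 11 of 37 RO-3306 cells, with highest values of 117.0 and 131.8 CPM and a median of 0 in both groups. The sums were 19.5 CPM (18.5 to 20.6) and 11.7 CPM (11.03 to 12.4), a log2 ratio of -0.69, but control cell A3 held 47.7% of the control counts, and without it the ratio was 0.07. In letter A the 5 control cells with a count gave 36.8 CPM and no RO-3306 cell had one, which allows up to 0.171 CPM, whereas in letter D 15.7 CPM stood in RO-3306 cells against none in control, where up to 0.404 CPM is allowed.

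Sun2 had a count in 5 of 29 control cells (17.2%, 5.85 to 35.8) and 13 of 37 RO-3306 cells (35.1%, 20.2 to 52.5). Control cells reached 290.5 CPM and RO-3306 cells 54.2 CPM. The sums were 6.72 CPM (6.11 to 7.38) and 2.94 CPM (2.60 to 3.31), a log2 ratio of -0.97 that became -0.28 without control cell B10. Sun1 thus lost its direction without its leading cell, and neither gene had a direction shared by all letters.

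Correlations among members over cells were weak, and with counts this sparse no relation is read from them. Among the 36 pairs, Spearman's rho over cells thinned to 639000 counts had a median of -0.00294 over 25 control cells and of 0.0257 over the 34 RO-3306 cells, within ranges of -0.395 to 0.530 and -0.229 to 0.352. The labels name no separate cultures within a group, so these are descriptions. The highest value in both groups was that of Lbr with Sun1, 0.530 and 0.352, and Lmnb1 with Sun1 reached 0.447 and 0.351. Sun1 was counted in few cells, so each of these values rests on few non-zero points. Lmna and Tmpo stood at -0.0139 and 0.272, and Lmna and Emd at 0.207 and 0.101.

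Over the 3702 genes of at least 50 CPM, the pattern of Tmpo across cells was most like those of Chaf1b (rho 0.719 in control and 0.416 in RO-3306 cells) and Asf1b (0.464 and 0.610), both of which encode histone chaperones of DNA replication, followed by the proteasome subunit gene Psmd11 (0.680 and 0.351). For Lmna the most alike genes were Cox19 (0.483 and 0.376), Nsfl1c (0.500 and 0.324) and Cfdp1 (0.316 and 0.508). For Lmnb1 they were Yipf6 (0.595 and 0.3297), Suclg2 (0.434 and 0.478) and Trim35 (0.638 and 0.259). These are the highest of many values over 25 and 34 cells.

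Partners of the lamina in the inner membrane and in the links to the cytoskeleton did not share one direction. Of 14 such genes 10 reached 5 CPM, with a median log2 ratio of 0.10 against -0.22 for all genes, 3 lower by 1 or more and none higher, beside 24.2% and 12.2% of all genes. Tor1b, a torsin ATPase of the nuclear envelope, stood at 106.6 and 21.1 CPM (-2.28). Tmem43, a membrane protein that binds emerin and lamins, stood at 109.4 and 41.997 CPM (-1.36), and both were lower in all 4 letters. The highest were Tor1aip2, a torsin cofactor, at 116.8 and 172.4 CPM (0.56), and Lemd2 at 10.1 and 13.9 CPM (0.43).

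Of 5 genes that farnesylate or process lamins, 3 had at least 5 CPM, and their median was 0.46, against -0.09 over all 5. The genes under that level were both lower, Icmt (-0.52) and Fntb (-1.34). Rce1, a protease that trims farnesylated proteins, stood at 58.0 and 96.1 CPM (0.72). Zmpste24, the protease that cleaves prelamin A, stood at 39.2 and 54.2 CPM (0.46), while Fnta, a farnesyltransferase subunit, was at -0.09. Rce1 and Zmpste24 were higher in all 4 letters, where Lmna itself was lower.

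The 15 genes of lamina disassembly and envelope reformation had a median of -0.27, near that of all genes, with 2 lower by 1 or more and none higher, beside 24.2% and 12.2% of all genes. Kpnb1, the importin beta gene, stood at 276.0 and 56.4 CPM (-2.27) and was lower in all 4 letters. Plk1, a mitotic kinase, stood at 108.6 and 44.8 CPM (-1.26), with letter C on the other side. Ppp2r2a (0.48) and Ppp1cc (0.44), subunits of phosphatases that act at mitotic exit, were the highest. Cdk1, named here as the gene of the kinase that RO-3306 inhibits and not for its value, stood at 564.4 and 504.3 CPM (-0.16).

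The nuclear pore list had the lowest median of these lists over all kept cells, but not one direction across letters. Of its 28 genes in the files 24 had at least 5 CPM, with a median of -0.82, and 10 were lower by 1 or more and none higher, beside 24.2% and 12.2% of all genes. Within letters A to D the median was 0.24, -0.998, 0.31 and -1.30. The list was not set against genes of like mRNA length, although longer mRNAs had lower ratios in these libraries. Ranbp2, on the cytoplasmic face of the pore, stood at 57.4 and 8.88 CPM (-2.56), and Ahctf1, which starts pore assembly on chromatin after mitosis, at 69.4 and 11.5 CPM (-2.49), but both were higher in RO-3306 cells in 1 letter. The highest were Aaas (0.57) and Nup37 (0.44). A list of 50 genes of the G2/M phase, from which Lbr and Tmpo had been taken, had a median of -0.28, with 13 lower and 4 higher by 1 or more, beside 24.2% and 12.2% of all genes, and ran from Mki67 (-2.98) and Ect2 (-2.38) to Psrc1 (1.52) and Gas2l3 (1.76). The sum of that list was 8317 CPM in control against 8621 CPM in RO-3306 cells.

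**Figure D4:**
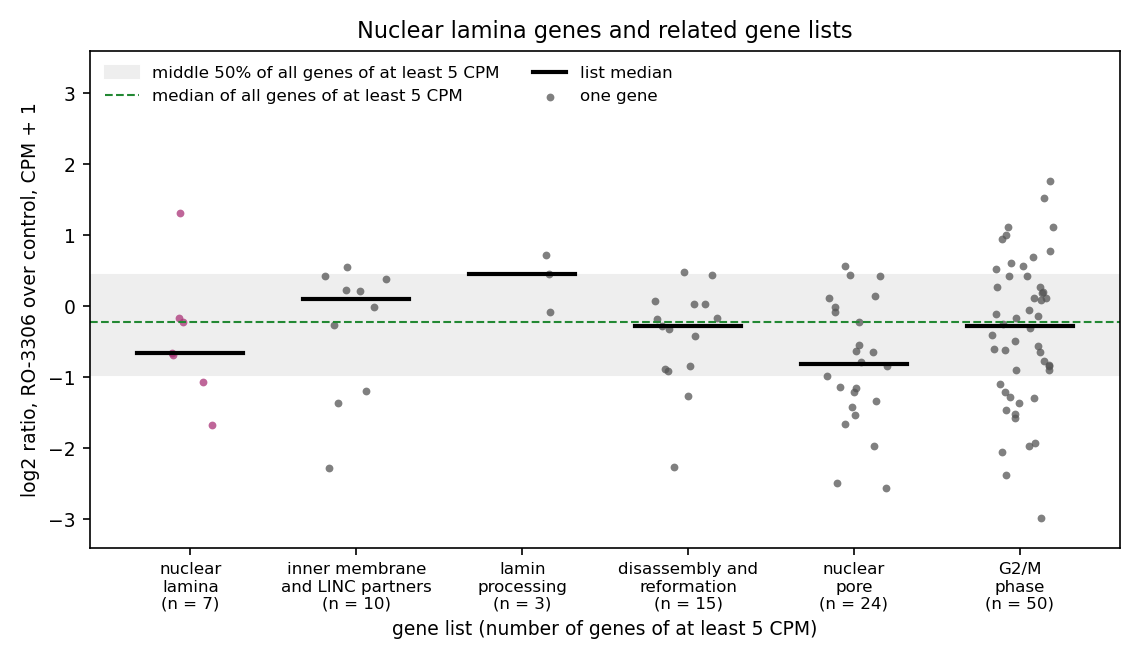
Log2 ratio of RO-3306 over control (y axis) of each gene of at least 5 CPM in the lamina set and 5 related lists (points), with list medians (black bars), the median of all 9374 genes (dashed) and their middle 50% (grey band). The nuclear pore list has the lowest median, -0.82, and the lamina genes run from Lmna at -1.68 to Emd at 1.32.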

How the data were processed

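The deposited files hold expected counts, 1 library per cell. Per the file headers, the authors counted reads with featureCounts 2.0.3 over whole gene spans of the RefSeq GRCm39 annotation, split reads with several sites into equal fractions, and set no strand option. STAR and FastQC are named, without versions, in the submitters' processing notes. Fractional counts were kept in the sums, and rounded to whole numbers for intervals, thinning and size factors. Counts were summed per group over kept cells and divided by the total (Python 3.11.15, numpy 2.4.6, scipy 1.17.1). Ratios are log2 of CPM + 1. Intervals are exact at 95%, Poisson for CPM and Clopper-Pearson for shares. Scaling alternatives used edgeR 4.0.16 (TMM) and DESeq2 1.42.0, for scaling only. The sums were tested on simulated data in which all cells of a group had the same profile, so differences between cells were not covered. Lengths, transcripts and promoters are of GRCm38 (GENCODE M21, RefSeq), and 97.2% of the genes of at least 5 CPM had a length. Members and gene lists were chosen with earlier results of these data known. Named genes were all 9 members, the 2 highest and 2 lowest of each list, and the 3 genes most like Lmna, Lmnb1 and Tmpo. No pair among the 66 kept libraries was identical.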

Additional observations from a re-analysis of the deposited data

Results flagged for a closer look

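Libraries that missed the minimum of 50000 counts and 1000 genes entered no comparison, and 2 lamina genes stood above the control level in them with intervals that did not overlap. In the 11 such RO-3306 libraries, with 1162603 counts in all, Lmna stood at 124.7 CPM (105.2 to 146.8, exact Poisson), from 145 counts in 6 libraries, against 2.93 CPM in the 19 such control libraries, which had 1 count of 341166. Lmnb1 stood at 190.1 CPM (165.9 to 216.9), but its 221 counts came from 1 library, against 1 count in control. Tmpo, Emd and Banf1 were also higher in the RO-3306 libraries, with overlapping intervals. Lbr was lower, at 2.58 CPM (0.532 to 7.54), 3 counts in 3 libraries, against 23.4 CPM (10.1 to 46.2) in control. All 8 control counts of Lbr came from 1 library, so this difference rests on that library.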

How the results depend on the processing

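No paired analysis was possible because no result comes from a test and the numbers in the titles do not tie control to RO-3306 cells. Of 314 values recomputed for 37 results, 179 were classed as unchanged, 135 as moved and 0 as reversed. Ratios that took the opposite sign were classed as moved, 2 for Lmnb1, 5 for Lmnb2, 1 for Banf1 and 2 for Sun1. For the ratios of single genes the limit was the counting interval. Medians, numbers of members and correlations have no counting interval of this kind. The ratio of Lmna stayed between -1.81 and -1.29 over 18 alternatives, that of Tmpo between -0.89 and -0.19. That of Lbr stayed between -1.74 and -0.59, and that of Emd between 0.74 and 2.08 over 19. The upper end for Emd is the value after the Eif1 share was taken, a step that raises the ratio by its construction. Lmnb1 (-1.34 to 0.08), Lmnb2 (-1.23 to 0.28), Banf1 (-0.42 to 0.01) and Sun1 (-1.96 to 0.60) crossed 0.

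The median ratio of the 9 genes was -0.49 with TMM, -0.47 with DESeq2's size factors, relative to the median gene (-0.47) and without the cell with the most counts in each group (-0.47). It was -0.27 with thinned cells, -0.55 with a pseudocount of 5 CPM, -0.41 against genes of like length, -0.29 without the cell that moves it most, and -0.91 to -0.59 leaving out each letter. Members lower by 1 or more numbered 1 in place of 2, Lmna alone, with TMM, with DESeq2's size factors, relative to the median gene, with thinned cells and against genes of like length, and 1 to 3 leaving out each letter. Members higher by 1 or more numbered 0 to 1 leaving out each letter. The Lmna share of lamin counts differed by -0.68 percentage points with per-cell CPM averaged, -4.11 with thinned cells and -5.80 with no filter on cells, and by -6.28 to -3.54 leaving out each letter. The cause of these shifts was not tested. The sums of Lmnb1, Lmnb2, Sun1 and Sun2 rest on few cells, which limits what can be seen of these genes.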
